A study of Mus musculus with 2 samples.

Results

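The enzymes of glycolysis were examined in mouse heart cells marked by Tie2Cre and sorted by flow cytometry at embryonic day 12.5. The members were chosen by symbol as 10 enzymes of the pathway, Hk1, Hk2, Pfkl, Aldoa, Gapdh, Pgk1, Pgam1, Eno1, Pkm and Ldha, and each was read through every probe set annotated to that gene alone. A probe set is the group of short probes that an Affymetrix array uses for a transcript. Of the 10 enzymes, 8 had such probe sets, 17 in all, out of 34945 single-gene probe sets on the array. Gapdh was named only by probe sets shared with pseudogenes or other genes and by array controls, and no probe set was annotated to Eno1, so neither has a gene value here.

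Control cells came from Tie2Cre;Tbx20 +/loxP embryos, with 1 working and 1 floxed allele of Tbx20, and mutant cells from Tie2Cre;Tbx20 loxP/- embryos, with 1 floxed and 1 null allele. Tbx20 encodes a T-box transcription factor of the heart, and the comparison addresses what its loss from this lineage does to gene expression. Both genotypes carry Tie2Cre, which recombines in endothelial and endocardial cells, in the cushion mesenchyme that descends from them, and in blood cells. Cells that carried CD41, CD45 or Ter119, surface proteins of blood cells, were gated out, as were dead cells, and RNA from each genotype went onto 1 array. The null allele is present throughout the mutant embryo, not only in the recombined cells, and the sources used here do not give whether embryos were pooled. Because each genotype has a single array, no value has a replicate, no test was run, and the loss of Tbx20 and any other difference between the cell preparations cannot be told apart.

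Glycolysis splits glucose into pyruvate in the cytosol and yields ATP without oxygen. Hexokinase, phosphofructokinase and pyruvate kinase catalyse its irreversible steps, and lactate dehydrogenase turns pyruvate into lactate while regenerating the NAD+ that the pathway needs. Endothelial cells are known to draw much of their ATP from glycolysis, and the hypoxia-inducible factors (HIF) are known activators of many of these genes, through sites that hold the letters ACGTG or GCGTG.

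Of the 8 measured glycolytic enzymes, 6 read lower in the mutant array and 2 higher, but all differences were small. The log2 ratios of mutant over control ran from -0.34 for Pgk1 to 0.10 for Hk1, with a median of -0.20. Over all 10665 genes measured on both arrays, 51% were lower and the median was -0.01 (SD 0.38 over genes). None of the 8 enzymes reached 1.5-fold in either direction, where 6.61% of all genes were at least 1.5-fold lower and 4.37% at least 1.5-fold higher. Among genes with mean signals over 5000, as 5 of the 8 had, these shares were 2.06% and 0.39%. A gene counted as measured where its brightest single-gene probe set exceeded, on both arrays, a floor at each array's median, which was 91.3 for the control array and 82.4 for the mutant array. By probe set, 13 of the 16 measured ones were lower, against 50.1% of all measured single-gene probe sets. The members' probe sets are not independent of each other, since all come from the same RNA samples.

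The promoters of Pgk1, Ldha and Pgam1 are shown to set their HIF core letters side by side. With the signals as deposited, Pgk1 and Ldha were the lowest of the enzymes and Pgam1 read alike on both arrays. After quantile normalization, which puts both arrays on a common distribution, Ldha was at -0.12, above Hk2 (-0.23) and Pfkl (-0.22). Its rank thus depends on the scaling, and no link between these letters and the ratios was tested. Each line gives 250 bases before the start of transcription from RefSeq (build GRCm38.p6), 5′ to 3′ on the gene's strand, which is the plus strand for all of them. For Ldha, which has several annotated starts, the window farthest upstream is shown. Capitals mark ACGTG or GCGTG on either strand, CACGT and CACGC being the same letters on the other strand.
Pgk1, chrX:106186850-106187099: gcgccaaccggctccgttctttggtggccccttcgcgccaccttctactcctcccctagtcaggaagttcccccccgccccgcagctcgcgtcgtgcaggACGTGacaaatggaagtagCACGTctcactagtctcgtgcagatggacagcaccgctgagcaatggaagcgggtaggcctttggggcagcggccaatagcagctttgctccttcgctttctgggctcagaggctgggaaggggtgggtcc
Ldha, chr7:46845554-46845803: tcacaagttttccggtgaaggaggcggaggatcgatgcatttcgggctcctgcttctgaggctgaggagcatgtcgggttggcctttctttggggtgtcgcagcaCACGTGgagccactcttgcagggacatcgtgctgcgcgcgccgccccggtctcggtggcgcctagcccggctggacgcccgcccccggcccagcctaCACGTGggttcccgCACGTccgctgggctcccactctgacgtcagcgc
Pgam1, chr19:41911621-41911870: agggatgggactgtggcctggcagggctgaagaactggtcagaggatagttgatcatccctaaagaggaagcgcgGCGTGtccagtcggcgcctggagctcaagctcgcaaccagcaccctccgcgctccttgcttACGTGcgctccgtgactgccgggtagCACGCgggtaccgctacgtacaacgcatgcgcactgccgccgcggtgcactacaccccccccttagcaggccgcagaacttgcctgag
The Pgk1 window held 2 such matches, the Ldha window 5 and the Pgam1 window 3. In Ldha some matches overlap, because CACGTG, the E-box letters bound by Myc and Max, reads ACGTG on both strands. The Ldha window shown held 2 copies of it, and each copy counts as 2 matches. The other window listed for Ldha held 1 match. Of 17 windows listed for the 10 enzymes, 14 held ACGTG or GCGTG (82.4%), against 38.6% of 32851 windows of the same length. Some windows of Aldoa and of Eno1 overlap and hold the same sites, so the 17 are not separate promoters. The enzymes' windows had a GC content of 49.6% to 71.2%, against a median of 52.4% over all windows. The T-box core letters AGGTGTGA, searched on both strands, matched 0 of the 17 windows and 1.12% of all windows. GGGCGG, the GC box, matched 8 of the 17 and 32.7% of all. A match is only a description of these letters, and occupancy was not measured.

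**Figure D1:**
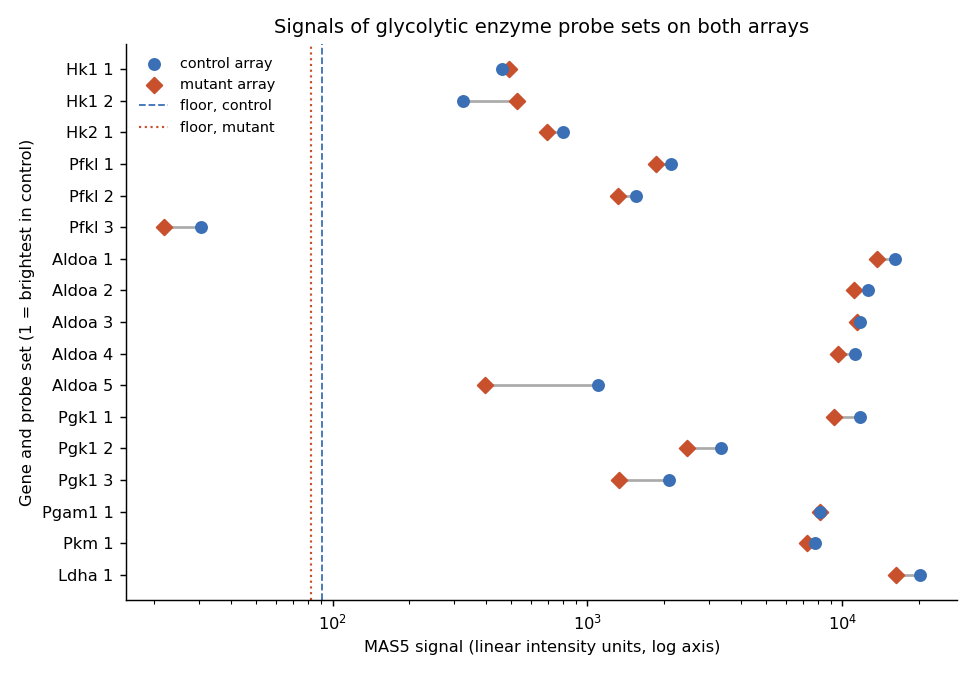
MAS5 signal (log axis) of each of the 17 probe sets of glycolytic enzymes on the control array (circles) and the mutant array (diamonds), with the floor of each array as a vertical line. Most pairs lie close together, with the widest gap at the dimmest Aldoa probe set, read at 1103 and 396.

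Hexokinase, which traps glucose in the cell as glucose phosphate, was read through its isoforms Hk1 and Hk2, and they lay on opposite sides of 0. The brighter Hk1 probe set read 461 on the control array and 493 on the mutant array, a log2 ratio of 0.10. Its other probe set read 324 and 529, a ratio of 0.71, or 1.63-fold higher in the mutant, a size that 5.35% of all measured single-gene probe sets reached. Both Hk1 probe sets were thus higher in the mutant, by amounts that differed with an SD of 0.43. Hk2, the isoform with a known response to hypoxia and insulin, read 799 and 694 on its only probe set, a ratio of -0.20. The difference between Hk1 and Hk2 was not tested, and both are dim enough that probe sets of 1 gene in this range of signal, 200 to 1000, differed with an SD of 0.36.

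Pfkl, the liver-type subunit of phosphofructokinase, the committed step of the pathway, was slightly lower in the mutant. Its brightest probe set read 2119 on the control array and 1851 on the mutant array, a log2 ratio of -0.19. The next read 1555 and 1314, a ratio of -0.24. These agree closely with each other (SD 0.03 over 2 probe sets), and a further probe set was under the floor on both arrays, at 30.5 and 21.9.

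Aldoa, the aldolase that splits the phosphorylated hexose into trioses, had 5 probe sets, all lower in the mutant, but one stood far from the others. The brightest read 16093 on the control array and 13603 on the mutant array, a log2 ratio of -0.24. Those next in brightness read 12549 and 11117 (-0.17), 11751 and 11415 (-0.04), and 11179 and 9581 (-0.22). Over these 4 the mean was -0.17 (SD 0.09 over probe sets). The dimmest probe set read 1103 and 396, 2.78-fold lower in the mutant (-1.48), and with it the mean was -0.43 (SD 0.59 over 5 probe sets). It was the only probe set of any member past 2-fold, where 1.46% of all measured single-gene probe sets were at least 2-fold lower. All Aldoa probe sets carry the suffix _x_at, which marks probes that may also match other sequences, so their signal cannot be assigned to Aldoa alone with certainty.

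Pgk1, the phosphoglycerate kinase that makes the first ATP of the pathway, was the lowest member, and its 3 probe sets were all lower. Its brightest probe set read 11757 on the control array and 9303 on the mutant array, a log2 ratio of -0.34 that 17.2% of all measured genes lay at or below. The others read 3334 and 2445 (-0.45) and 2087 and 1325 (-0.66). Both of these carry the suffix _x_at, so their signal cannot be assigned to Pgk1 alone with certainty. The brightest probe set carries no such suffix. The mean was -0.48 (SD 0.16 over 3 probe sets), and the smallest difference came from the brightest of them. The dimmest was 1.58-fold lower in the mutant, one of 2 member probe sets past 1.5-fold lower, a size that 7.29% of all measured single-gene probe sets reached.

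The remaining steps to pyruvate and lactate were each read by 1 probe set, so no agreement between probe sets can be given for them. Pgam1, the mutase between the phosphoglycerates, read 8140 on the control array and 8158 on the mutant array, a log2 ratio of 0.00. Pkm, the pyruvate kinase of non-liver tissues, read 7787 and 7285, a ratio of -0.10. Both lay well inside the spread of bright probe sets. That probe set does not separate the M1 and M2 splice forms of Pkm as far as the annotation says. Ldha, the lactate dehydrogenase subunit that favours lactate, read 20075 on the control array and 16230 on the mutant array, or 80.8% of control (-0.31).

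In order of log2 ratio the enzymes ran Pgk1, Ldha, Aldoa, Hk2, Pfkl, Pkm, Pgam1 and Hk1. No 2 neighbours in this order differed by more than 0.10, under the SD of 0.21 between probe sets of 1 gene at signals over 5000, so the order of neighbours is not resolved. The whole range from Pgk1 to Hk1 was 0.43. The irreversible steps, Hk1, Hk2, Pfkl and Pkm, had a median of -0.15, and the reversible ones, Aldoa, Pgk1, Pgam1 and Ldha, a median of -0.27. All the reversible ones had mean signals over 5000, as did only Pkm of the irreversible ones, so step and brightness cannot be told apart. After loess correction for brightness, the irreversible ones ran from -0.24 to 0.09 and the reversible ones from -0.24 to 0.07. Each group holds 4 genes and the difference between them was not tested.

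**Figure D2:**
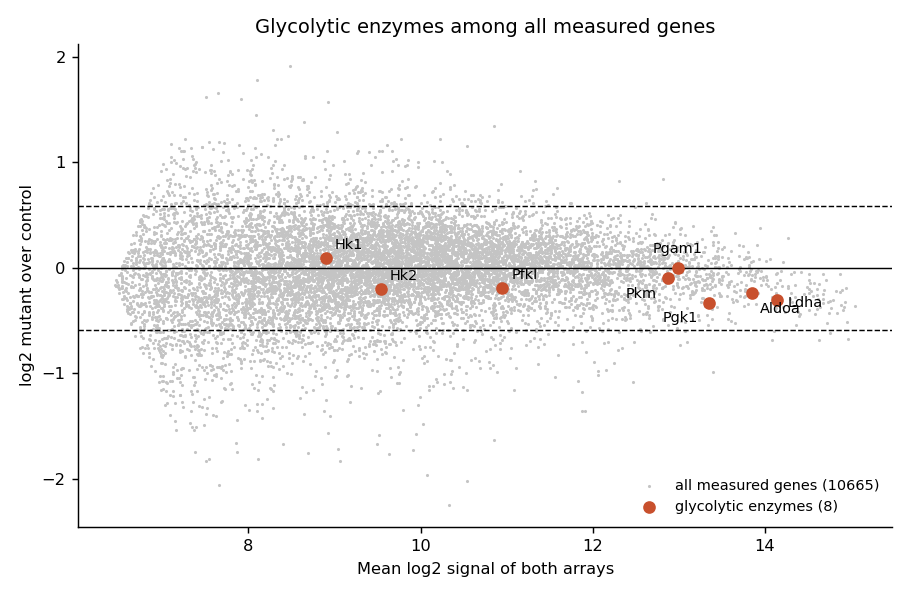
Log2 ratio of mutant over control against mean log2 signal for all 10665 measured genes (grey) and the 8 glycolytic enzymes (labelled), with dashed lines at 1.5-fold. The enzymes lie inside the dashed lines, and 5 of them sit at the bright end, where the grey cloud leans below 0.

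The ratios were also set beside brightness, whose part in them was not tested. Aldoa, Pgk1, Pgam1, Pkm and Ldha had mean signals over 5000, and 4 of the 5 were lower, with a median log2 ratio of -0.24. Among all 777 genes that bright, 59.6% were lower and the median was -0.06 (SD 0.23 over genes). When each array's values were put on a common distribution by quantile normalization, the median of the 8 enzymes went from -0.20 to -0.13, and after loess correction for brightness it was -0.12. Pgk1 went to -0.26 and -0.24 under these scalings, and Ldha to -0.12 and -0.14. Hk2 and Pfkl, which are dimmer, stayed between -0.19 and -0.24 under each of these scalings. Scaling by the median of measured probe sets put the enzymes' median at -0.22 and turned Pgam1 to -0.01, so 7 of the 8 were then below 0.

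**Figure D3:**
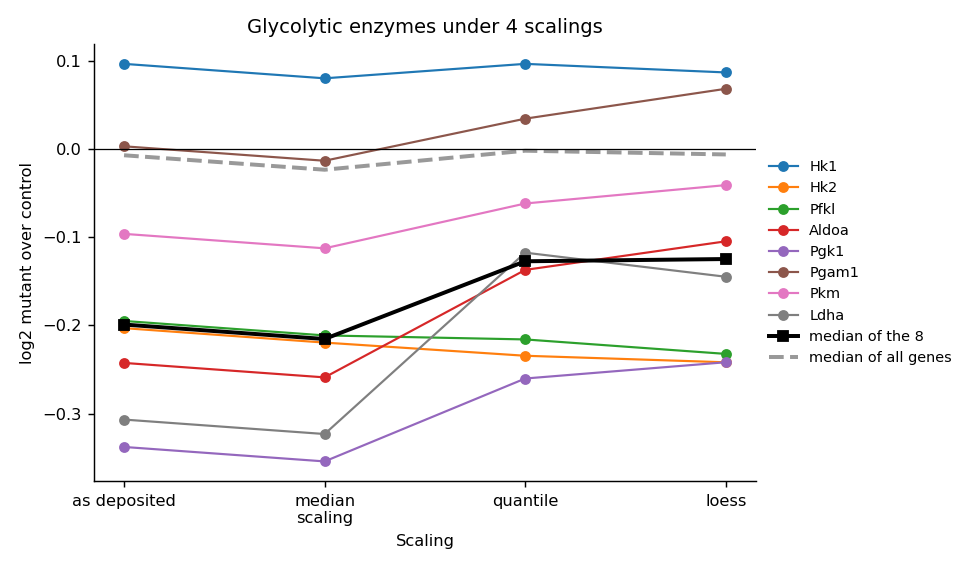
Log2 ratio of each of the 8 glycolytic enzymes with the signals as deposited and under 3 other scalings, with the median of the 8 (black) and of all genes (dashed). Ldha, Aldoa and Pgk1 move towards 0 under quantile and loess scaling, while Hk1 stays above 0 and Pkm below it throughout.

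The Gapdh array controls, left out of the enzyme values, gave different directions along the transcript. The probe set at the 3′ end read 27389 on the control array and 22952 on the mutant array (-0.25). The middle one read 13095 and 13925 (0.089), and that at the 5′ end 12071 and 13978 (0.21). The 3′ signal over the 5′ signal, a sign of RNA quality, was thus 2.27 for Gapdh on the control array and 1.64 on the mutant array, while for Actb it was 0.989 and 0.998. The part of RNA quality in the enzyme ratios was not tested.

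Markers of cell types also differed between the arrays, and their part in the enzyme ratios was not tested. In bulk samples such as these, fewer cells of a type and less RNA per cell cannot be told apart. All 10 endothelial and endocardial markers, among them Pecam1 and Cdh5, were measured, and their signals summed to 61837 on the control array and 65150 on the mutant array, with 8 markers higher and 2 lower. The endocardial factor Nfatc1 was lowest at -0.33, with its other probe sets between -1.58 and 0.16. Apart from Tbx20, which the list of cushion mesenchyme markers also holds, its 8 markers summed to 55130 and 43311, and all were lower, Postn at -0.73 and Msx1 at -1.08 among them. Epicardial markers, of which 6 of 7 were measured, summed to 4555 and 7769, all higher. Cardiomyocyte markers (8 of 9 measured) comprised 3 that were lower and 5 that were higher and summed to 15301 and 18909. Without Myl7 (0.83) and Actc1 (0.62), left out after their values were seen, the sums were 9442 and 9012. That choice took out genes that were higher, so the lower mutant sum follows from it and gives no direction for the list. Tnni3 was kept although it was higher too, at 0.65 (425 and 667). The brightest gene kept, Tnnt2, was lower (3345 and 2824, -0.24), with its other measured probe set at -0.78. Of 8 erythroid genes 3, all embryonic globins, were measured and summed to 11009 and 7199, while Slc4a1, Epb42 and Gata1 were under the floor on both arrays and Alas2 (114 and 63.1) was above it on the control array only. None of 8 macrophage and leukocyte markers was above the floor on both arrays, but Cx3cr1 (226 and 47.8) and Csf1r (144 and 80.6) were above it on the control array only. The other probe sets of Cx3cr1 (45.5 and 26.4) and of Csf1r (80.5 and 41.4, 58.6 and 60.3) were under the floor on both arrays. Tbx20 itself read 84.0%, 85.9% and 60.2% of control on its 3 probe sets. These may lie outside the deleted part, which was not checked, so the values do not show how fully Tbx20 was lost.

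Among the other isoenzymes and steps of glycolysis, 10 of 19 listed genes were measured, 6 lower and 4 higher. Their median log2 ratio was -0.23. Eno2, the neuronal enolase, read 224 on the control array and 130 on the mutant array, 1.72-fold lower (-0.78). Eno3, the muscle enolase, read 249 and 147 (-0.76). Pklr, the pyruvate kinase of liver and red cells, read 155 and 102 (-0.61). These 3 of the 10 were the only ones past 1.5-fold, a size that 6.61% of all measured genes reached as lower. All had mean signals under 200, where 15.9% of genes were at least that much lower. The median was -0.05 with the floor at the 75th percentile, and 0.05 with only the probe sets that carry no suffix.

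**Figure D4:**
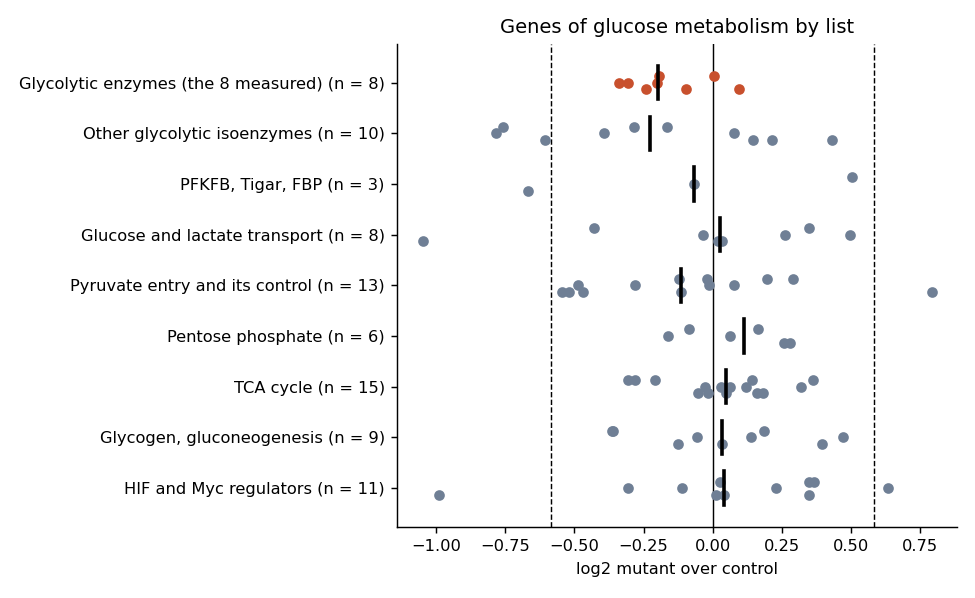
Log2 ratio of mutant over control for every measured gene of 9 lists of glucose metabolism (points), with the median of each list (bar) and dashed lines at 1.5-fold. The glycolytic enzymes and the other isoenzymes have medians of -0.20 and -0.23, and the TCA cycle and pentose phosphate lists 0.05 and 0.11.

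Steps that feed glycolysis or control it showed no common direction. Of 11 genes of glucose and lactate transport, 8 were measured, and 3 of these were lower and 5 higher (median log2 ratio 0.03). Slc16a7, a monocarboxylate transporter, read 210 on the control array and 102 on the mutant array, 2.07-fold lower (-1.05). The mutant signal was close to the floor, and the mean signal was under 200, where 15.9% of genes were at least 1.5-fold lower. Slc2a3, a glucose transporter, was not among those past 1.5-fold, at 0.50 with its other probe set at 0.53. Among regulators of fructose bisphosphate, 3 of 7 were measured. Pfkfb2, whose product makes and breaks the activator of phosphofructokinase, read 138 and 86.7 (-0.67), close to the floor. Tigar, which opposes it, was at 0.50 with other probe sets at -0.26 and 0.16, so its direction is unsettled.

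Genes of pyruvate entry into mitochondria, 13 of 14 measured, comprised 9 that were lower and 4 that were higher, and their median log2 ratio was -0.11. Pdhx, a component of the pyruvate dehydrogenase complex, read 206 on the control array and 356 on the mutant array (0.79) and was the only one past 1.5-fold. Over all measured genes 4.37% were at least 1.5-fold higher, and 5.78% of those with mean signals of 200 to 1000, as Pdhx had. The kinases that switch the complex off read lower for Pdk1 (-0.52), Pdk2 (-0.49) and Pdk4 (-0.47) and higher for Pdk3 (0.20), all within 1.5-fold. The phosphatases that switch it on again read lower too, Pdp1 at -0.54 and Pdp2 at -0.28. Of these kinases and phosphatases, all but Pdp1 were named after their values were seen. The measured probe sets of Pdk1 ran from -0.69 to -0.36, all lower.

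The branches around glycolysis had medians slightly above 0. The pentose phosphate list had 2 of 6 measured genes lower and a median of 0.11, with Rpe, an epimerase, at 0.28 and Pgls, a lactonase, at 0.26. The TCA cycle list had 6 of 15 lower and a median of 0.05, with Sucla2 at 0.36 and Ogdh at 0.32, and none past 1.5-fold. Of 9 measured genes of glycogen and gluconeogenesis, 4 were lower and 5 higher, with a median of 0.03. Gbe1, the glycogen branching enzyme, was at 0.47 and Pgm2 at 0.40, and none passed 1.5-fold.

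Known regulators of glycolytic genes also went both ways. All 11 listed HIF and Myc genes were measured, and 3 of them were lower and 8 higher (median log2 ratio 0.04). Egln3, a prolyl hydroxylase that marks HIF for decay and is itself a HIF target, read 1225 on the control array and 616 on the mutant array, 1.99-fold lower (-0.99), with its other probe set at -1.70. Max, the partner of Myc, read 338 and 525, 1.55-fold higher (0.64). Egln3 and Max were the only ones past 1.5-fold, where 6.61% of all measured genes were at least that much lower and 4.37% higher. Hif1a was at 0.35 with other measured probe sets at 0.07 and -0.76, so its direction is unsettled. Epas1 was at -0.31 with its other probe set at -0.13. Both were named after their values were seen. Transcript levels alone do not report HIF protein, which is controlled mainly by decay.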

How the data were processed

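Gene expression was measured in sorted cells on 1 Affymetrix array per genotype. Per the submitters' processing notes, MAS5 produced the deposited values, which are linear intensities. MAS5 combines perfect-match and mismatch probes and scales each array by a single factor, and the mean without the lowest and highest 2% was 500.0 on each array. Its version and settings are not given in the sources used. Differences that vary with brightness remain, and ratios of dim probe sets are noisy.

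Of 45101 probe sets, 64 were array controls, 34945 named 1 gene, 932 several and 9160 none. Signals were floored at each array's median and put on the log2 scale, and a gene took its brightest single-gene probe set (Python 3.11.15, pandas 2.3.3, statsmodels 0.14.6). No test was possible. Scatter between probe sets of a gene, which covers probe error only, was the measure of error, and precision is limited by the number of arrays.

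The text names every member, and from each pathway list the genes past 1.5-fold or, where fewer than 2 passed, the 2 with the largest ratio. The members and lists were chosen with earlier results of these data known. Alternatives were 3 other scalings, other floors, a pseudocount and other choices of probe set. Simulated data with 200 changed genes served as a test of the steps. At 1.5-fold, 45 of 49 genes lowered by a log2 of 1 were called, and 46 of 48 raised by it. So were 896 of 10612 unchanged genes.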

Additional observations from a re-analysis of the deposited data

Results flagged for a closer look

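The Gapdh array controls, which no enzyme value uses, were higher in the mutant array than in the control array at the 5′ end (log2 ratio 0.21) and in the middle of the transcript (0.089). The 3′ control was lower (-0.25). There is 1 array per genotype, so these differences were not tested.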

How the results depend on the processing

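Over the 9 alternatives run, the median log2 ratio of the measured glycolytic enzymes stayed below 0, between -0.24 and -0.12, and 0 of them reached 1.5-fold lower in each. With unsuffixed probe sets only, Hk2, Pgk1 and Pkm were left and all 3 were lower. At a floor set to the 25th percentile, 1569 genes over the array were at least 1.5-fold lower and 920 higher, and at the 75th 183 and 128, against 705 and 466; Hk1 was not measured at the higher floor. Lower genes made up 60.2% of these calls, and 75.3% with a pseudocount. Where probe sets naming several genes were allowed, 8 of 9 enzymes were lower, Gapdh came in at -0.28, and Hk1 went from 0.10 to -0.35, because its brightest probe set then is one that also names the ribosomal gene Rpl17. The median of probe sets put Hk1 at 0.40 and Pgk1 at -0.45. With unsuffixed probe sets the medians of other glycolytic genes (0.05), of fructose regulators (0.22), of transporters (-0.10) and of glycogen and gluconeogenesis (-0.01) changed sign, and the transporter median, 0.03 as reported, was also below 0 with both other floors, a pseudocount or the median over probe sets. Pgam1 changed sign under median scaling (-0.01). Of 71 list medians under these alternatives, 6 moved beyond the probe error of the list. No paired analysis was possible because each genotype has 1 array. Probe sets of the same gene differed with an SD of 0.49 at signals under 200 and 0.21 over 5000.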
